A study of Mus musculus with 9 samples.

Results

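Retinal pigment epithelium (RPE) cells were described in a single-cell RNA-sequencing experiment on mice in which both miR-204 and miR-211 can be deleted from RPE cells. A cell was taken as an RPE cell when at least 3 of the RPE markers *Rpe65*, *Ttr*, *Best1*, *Lrat* and *Rdh5* had a UMI (unique molecular identifier, 1 per captured RNA molecule), when their sum reached 5 per 10,000 UMIs, and when the Müller glia genes *Slc1a3* and *Aqp4* together stayed under 5 per 10,000. These values chose the cells and are given only as a description. The rule found 411 RPE cells among 31089 cells of 9 mice. By their labels all mice, controls included, carried the RPE65-ERT2-Cre transgene, in which the *Rpe65* promoter drives a Cre recombinase that needs tamoxifen, together with floxed alleles of both microRNA genes. Both groups were also homozygous for a variant of RPE65 with lower activity. The 5 dKO mice (S05 to S09) received tamoxifen at 75 mg/kg in corn oil and the 4 control mice (S01 to S04) corn oil alone, on 5 days from postnatal day 28, and tissue was taken after 6 months. The paper instead describes controls without Cre that were given tamoxifen, and the labels of these samples were followed here. By retinal imaging, the paper saw no difference between such controls and Cre-carrying mice given vehicle. It also reports no phenotype after tamoxifen in Cre mice that lacked the floxed alleles. Those comparisons were of imaging, not of RNA. By the labels, the control mice differed from the dKO mice in the drug as well as in the deletion, and both effects cannot be told apart. The neural retina was peeled from the eyecup, so the RPE cells are those that came away with it, and the labels give the tissue as retina. The count matrix names neither microRNA gene, and the deletion itself could not be checked here. The labels give S06 and S07 the same animal number. Their sex-linked RNA differed, as described with S07, and both were kept as separate mice. Only mice with at least 10 RPE cells were compared, which left S01, S02 and S03 as controls (n = 3) and S06, S07, S08 and S09 as dKO (n = 4). Values listed for a gene follow this order of mice.

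The RPE is a single layer of pigmented epithelial cells between the photoreceptors and the choroidal blood vessels. It re-isomerizes the retinoid chromophore of the visual pigments, engulfs the tips that photoreceptors shed, transports ions and nutrients, and forms the outer blood-retina barrier. MicroRNAs pair through their seed, bases 2 to 8 from the 5′ end, with sites that lie mostly in 3′-UTRs and lower the stability or translation of the mRNA. miR-204 and miR-211 are encoded within introns of *Trpm3* and *Trpm1*, and both microRNAs are abundant in RPE.

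The mature 5p strands of both microRNAs are shown first because they share a seed, which stands in capitals. The sequences and positions are from RefSeq (GRCm38.p6), and miR-204-5p lies at chr19:22750610-22750631 and miR-211-5p at chr7:64205831-64205852, both on the plus strand. They have 22 bases each and differ at 1 position, base 17, outside the seed.
miR-204-5p: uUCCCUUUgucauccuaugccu
miR-211-5p: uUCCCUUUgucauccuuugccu
The next lines give matches to that seed in 3′-UTRs of genes described in this report, read from GENCODE M39 transcripts with GRCm39 positions, where capitals mark AAAGGGA (7mer-m8) or AAAGGGAA (8mer, with an additional A opposite base 1).
Gdf11, 7mer-m8, chr10:128718336-128718364, minus strand: ggaatgccaggAAAGGGActtcttcaatg
Mlec, 8mer, chr5:115283724-115283753, minus strand: aataaaaactaAAAGGGAAgaggaagcaga
Mlec, 7mer-m8, chr5:115284455-115284483, minus strand: cagctgcaataAAAGGGAttttctatgtc
Ptprd, 8mer, chr4:75862048-75862077, minus strand: ctttaatttgtAAAGGGAAttgaggagtgc
Cdh8, 7mer-m8, chr8:99751523-99751542, minus strand: agAAAGGGActatggaccac
Erf, 7mer-m8, chr7:24942248-24942276, minus strand: aggaccatgtgAAAGGGAggtgtgcgatg
Adamts10, 8mer, chr17:33749015-33749044, plus strand: tagtgtggaaaAAAGGGAAaagaagaaaca
*Ptprd* and *Adamts10* each have 2 8mers, of which 1 is shown. The *Cdh8* window is shorter because only 2 bases of the annotated 3′-UTR precede its match. Whether any of these sites is bound was not tested. Matches in other genes of this report are not shown, among them *Rgs6*, *Nrg1*, *Trpm1*, *Rgr*, *Meis2* and *Lamp1*. *Gdf11*, *Mlec*, *Ptprd* and *Cdh8* had higher and *Erf* and *Adamts10* had lower mean levels in dKO RPE cells, as described with their values. A match is common. Of 20960 genes with an annotated 3′-UTR, 21.3% held either kind, as did 27.9% of the 9725 such genes tested in RPE cells. Of the 8 genes with the lowest p among those higher in dKO RPE cells, 3 held a match (*Cdh8*, *Ptprd* and *Rgs6*). Of the 8 among those lower, 1 did (*Erf*), and *Gm48606* has no annotated 3′-UTR.

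The RPE cells were unevenly spread over the mice. Mice S01, S02, S03, S06, S08 and S09 had 66, 62, 60, 88, 55 and 54 RPE cells, while S07 had 18, S05 had 7 and control mouse S04 had 1. As a share of all cells of a mouse, this was between 0.0369% (S04, 95% exact Clopper-Pearson interval 0.00093% to 0.205%, counting error only) and 2.13% (S06, 1.71% to 2.61%). The mean share was 1.27% ± 0.833 (SD, n = 4) for controls and 1.24% ± 0.790 (SD, n = 5) for dKO, a difference within the spread between mice (exact permutation test, two-sided, p = 0.921, adjusted p = 0.921 over 4 such tests). The summed RPE counts held between 101619 (S07) and 3274491 UMIs (S06) per compared mouse. The median RPE cell had 15662.5, 9629.5 and 27046.5 UMIs in S01, S02 and S03 and 17479, 2711.5, 23885 and 2785 in S06 to S09, so S07 and S09 were the shallowest (exact permutation test, two-sided, p = 0.514, where 0.0571 is the smallest p that 3 against 4 mice allow). Few cells carried most of the counts: the 172 RPE cells above 20000 UMIs held 87.9% of all RPE UMIs, and 29 cells above 100000 UMIs held 39.6%. No cell identifier occurred in more than 1 mouse. Of the barcodes, 2808 recurred in more than 1 of the 8 sublibraries, which concerned 88 RPE cells.

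The summed marker level of the chosen cells had a median of 80.7 per 10,000 UMIs, with quartiles of 45.1 and 106. The cells just inside the threshold had 5.02, 5.02 and 5.44 per 10,000, and those just outside 4.88, 4.75 and 4.69. In each mouse a tail of cells lay well below the main cloud of RPE cells. Cells with fewer than 30 marker UMIs per 10,000 (a limit chosen after the values were seen) numbered 8, 16 and 4 in S01, S02 and S03 and 20, 5, 11 and 3 in S06 to S09. They held 3.04%, 12.2% and 3.38% of the RPE UMIs of the control mice and 18.5%, 60.4%, 12.4% and 2.38% of those of S06, S07, S08 and S09. Their rod marker level lay between 1438 and 4159 CPM (UMIs of a gene or list per 1000000 UMIs) in the 7 mice, against 233 to 1216 CPM in the RPE cells above the limit, and the level of *Syt1*, a synaptic vesicle protein of neurons, was 1709 to 3880.5 CPM against 182 to 571 CPM. Results that depend on these cells are given with and without them.

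**Figure D1:**
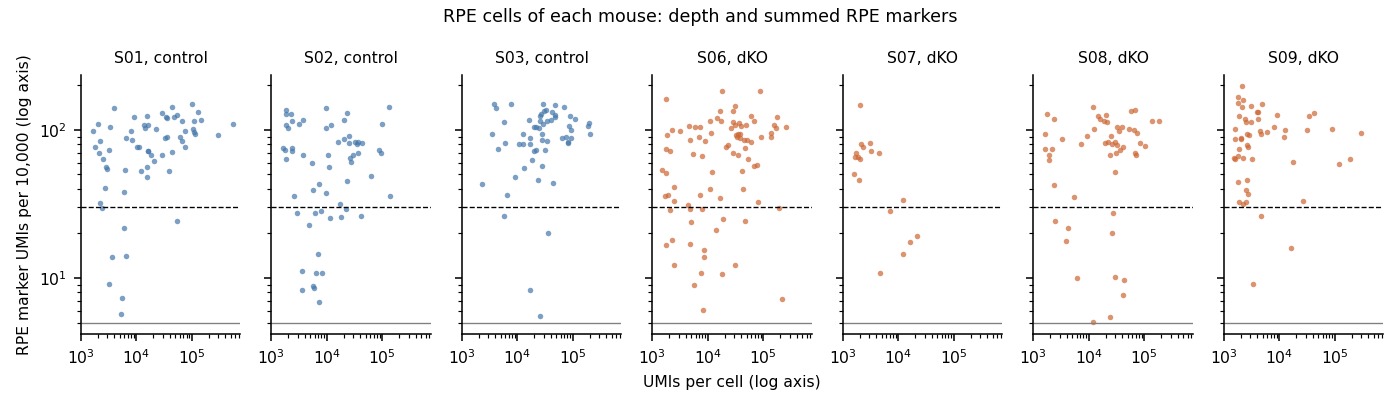
Each point is 1 of the RPE cells of the 7 compared mice, with its UMIs on the horizontal and its summed RPE marker UMIs per 10,000 on the vertical axis, both on log scales. The solid line is the threshold of 5 that chose the cells and the dashed line the limit of 30, and S07 has the fewest points (18).

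Mouse S07 stood apart from the other 6 compared mice. Its 5 cells below the limit of 30 held most of its RPE counts, its summed RPE markers reached 3562 CPM against 7388 to 10057 CPM in the other mice, its rod markers 2883 CPM against 312 to 918 CPM, and its cone markers 1161 CPM against 52.3 to 445 CPM. Y-linked RNA stood at 424 CPM in its Müller glia, and it was of a like level in S04 and S05 and at most 4.77 CPM in the other 6 mice. *Xist* RNA, which marks female cells, stood at 53.4 CPM in the Müller glia of S07. In those of S06 it stood at 1344 CPM and Y-linked RNA at 4.47 CPM. S06 and S07 thus differed in sex-linked RNA, although the labels give them the same animal number. Of the 13 RPE cells of S07 above the limit of 30, 8 had *Xist* RNA and no Y-linked UMI. All 5 of its cells below the limit had a Y-linked UMI, and 7.53% of its Müller glia had *Xist* and no Y-linked UMI. In S07, 1 UMI was worth 8.40 CPM over all its RPE cells and 20.4 CPM above the limit of 30, so that a count of 0 there allows a level of up to 25.2 CPM and 61.2 CPM (3 counts). Whether those cells came from this mouse was not tested, and values are given with and without S07 where they depend on it. Over the 7 mice, rod markers made up 0.0590% ± 0.0292 (SD, n = 3) of control and 0.110% ± 0.121 (SD, n = 4) of dKO RPE UMIs (two-sided exact permutation p = 0.857). The mitochondrial share was 3.85% ± 0.150 (SD, n = 3) and 3.52% ± 0.774 (SD, n = 4; two-sided exact permutation p = 0.514).

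The levels of the markers that chose the cells describe the rule and do not support the label. Müller glia (2419 cells) and rods (14210 cells), chosen by marker rules of the same form, served for comparison. *Rpe65*, the isomerohydrolase of the visual cycle, had 4681 CPM in RPE cells, 5.38 CPM in Müller glia and 4.72 CPM in rods, and it was detected in 97.3% of RPE cells against 6.45% of Müller glia and 2.77% of rods, where median depths were 13051, 15221 and 4892.5 UMIs. After thinning every cell to 2000 UMIs, these shares were 90.9%, 1.001% and 0.971%, with 39, 22 and 517 shallower cells left out. *Best1*, which encodes the chloride channel bestrophin-1, went against the label: it had 2 UMIs in all RPE cells (0.156 CPM), so that the rule in effect rested on the other 4 markers. Some markers of other cell types were at or near 0, with 0 UMIs of the microglial *Tmem119*, 1 of *C1qa*, 1 of the endothelial *Cldn5* and 0 of the fibroblast gene *Col1a1*. Other members of the microglial and endothelial lists had a UMI in more cells, with *Cx3cr1* in 13.4% of RPE cells, *Flt1* in 25.5% and *Kdr* in 20.2%. The pericyte list gave *Cspg4* in 35.5% and *Pdgfrb* in 29.9%, and the cone list *Arr3* in 46.0%. Some genes of other marker lists were present at a level unlike other members of their list. The microglial list gave *Csf1r* at 184 CPM and the amacrine list *Slc6a9* at 176 CPM. Of the melanocyte list, *Sox10* had 44.4 CPM and *Kit* 21.01 CPM, with a UMI in 42.3% and 26.0% of RPE cells, and only *Mc1r* was near 0, with 2 UMIs. The Müller glia list gave *Glul* at 703 CPM, with a UMI in 89.8% of RPE cells, and the bipolar list *Prkca* at 549.8 CPM, with a UMI in 86.4%.

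Beyond the markers, RPE cells had a set of genes that were close to absent from the neighbouring cells. Of 3388 genes with a mean of at least 50 CPM in RPE cells, 115 were more than 16-fold above the higher of Müller glia and rods, on the ratio of mean CPM plus 1 over the 7 mice. Values are given as mean ± SD over these mice (n = 7). This ranking uses the same cells that the rule chose and is a description with no test. Among the 20 genes at its top, *Rpe65*, *Lrat* and *Ttr* belong to the rule itself. *Rgr*, an RPE opsin that takes part in the visual cycle, had 7689 ± 1685 CPM in RPE cells, against 20.6 CPM in Müller glia and 17.4 CPM in rods. Membrane transport was represented by *Slc6a20a*, an amino acid transporter (2253 ± 806 CPM), *Slc26a7*, an anion transporter (1141 ± 499.6 CPM), and *Car12*, a carbonic anhydrase (853 ± 194 CPM). Secreted and matrix genes were *Sema3c*, an axon guidance ligand (1292 ± 456 CPM), *Thbs1*, thrombospondin 1 (1170.5 ± 335 CPM), *Ptgds*, prostaglandin D synthase (2329 ± 624 CPM), and *Col8a2*, a collagen of basement membranes (607 ± 132 CPM). *Cldn1*, a tight junction claudin (445 ± 158 CPM), was also in this set. *Ermn* and *Myrf*, known mainly from oligodendrocytes, had 649.6 ± 210.7 CPM and 458 ± 143 CPM, and none of the genes named here exceeded 20.6 CPM in either comparison class. Other members were *Ankfn1*, *Tmem72*, *Pon1* and the uncharacterized *Gm45895* and *Gm48956*.

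**Figure D2:**
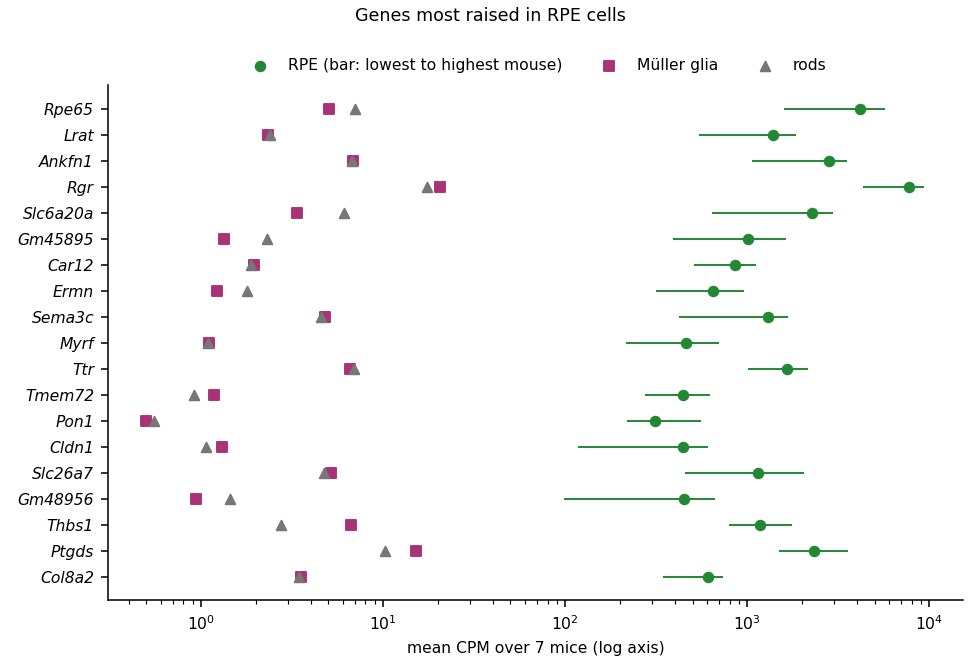
Mean CPM over the 7 mice (log axis) of genes most raised in RPE cells over both comparison classes, with circles for RPE, squares for Müller glia and triangles for rods. The horizontal bars run from the lowest to the highest mouse in RPE cells, and in every gene they stay to the right of both other classes.

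To see which RPE genes differed between the groups, counts were summed over the RPE cells of each mouse and tested in edgeR (quasi-likelihood), with mice as replicates. From here on CPM values are scaled by the TMM method, and in a sum over cells a lower level in every cell and fewer cells with the gene cannot be told apart. Of 10533 genes, 0 passed an adjusted p of 0.05 (edgeR, Benjamini-Hochberg; 0.0% called). At a raw p under 0.05 there were 619 (5.88%), with 414 (3.93%) higher and 205 (1.95%) lower in dKO. The median log2 fold change was -0.0075. limma-voom called 0 genes, DESeq2 12 and edgeR without a filter on low counts 226. In simulated counts, 200 of 10533 genes were changed, and the spread of each gene followed the trend with mean level in these data. There the test recovered 39% of genes changed by 1 and 90% of those changed by 2 on the log2 scale, with 6 false calls. The simulation held neither a gene's own spread nor single cells with most of its counts. Its recovery may therefore not hold for the measured counts. None of the genes described next passed the adjusted threshold in this test, and the words higher and lower give the order of the group means.

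Among genes with lower levels in dKO RPE cells, *Osgin1*, an oxidative stress response gene, had the most counts of the 3 with the lowest p. It had 31.2, 43.8 and 22.4 CPM in control and 5.75, 0, 12.6 and 3.21 CPM in dKO mice. All dKO values were below all control values, a pattern that 4.27% of all genes tested showed. The dKO mouse S07 had 0 UMIs, which at its depth allows up to 25.2 CPM. The log2 fold change of -2.15 ± 0.43 (SE; edgeR, adjusted p = 0.426) became -2.10 without S07 and -1.93 over the RPE cells above the limit of 30, and DESeq2 gave an adjusted p of 0.0492. In Müller glia of the same mice *Osgin1* had a log2 fold change of 0.50. *Necab2*, which encodes a calcium-binding protein best known from neurons, had 7.89, 7.55 and 12.7 CPM in control and 1.82, 0, 1.20 and 1.07 CPM in dKO mice. It starts 398 bases downstream of *Osgin1* on the same strand (GRCm39, *Osgin1* at chr8:120152470-120173000, *Necab2* at chr8:120173399-120199379), and the counts of such neighbours may not be independent. Its groups did not overlap, with a log2 fold change of -2.65 ± 0.45 (SE; edgeR, adjusted p = 0.397), but its counts came from few cells: of 29 UMIs in S03, 89.7% were in 1 cell. *P2ry6*, a receptor for extracellular UDP, had 6.77, 9.81 and 8.34 CPM in control and 1.51, 0, 0 and 1.07 CPM in dKO mice, without overlap and with 0 UMIs in both S07 and S08. Its log2 fold change of -2.99 ± 0.58 (SE; edgeR, adjusted p = 0.416) rested on 18, 13 and 19 UMIs in the control mice.

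*Rasgrp3*, an activator of Ras proteins, was the gene of this group with the highest counts. It had 317, 317 and 279 CPM in control and 166, 143, 163 and 195 CPM in dKO mice, with all 4 dKO mice below all 3 control mice and a log2 fold change of -0.85 ± 0.18 (SE; edgeR, adjusted p = 0.452). Over the cells above the limit of 30 the log2 fold change was -0.62 and the groups overlapped. *Sat1*, which acetylates spermidine and spermine, had 37.2, 28.7 and 24.1 CPM in control and 12.7, 8.40, 16.8 and 10.7 CPM in dKO mice. *Fah*, the last enzyme of tyrosine breakdown, had 34.2, 33.2 and 33.3 CPM in control and 20.3, 8.40, 16.8 and 16.1 CPM in dKO mice. For both genes the groups did not overlap, also above the limit of 30, with log2 fold changes of -1.17 (SE 0.27) and -0.94 (SE 0.22). The value of S07 was 1 UMI for both genes. At its depth even a count of 0 allows up to 25.2 CPM, or 61.2 CPM above the limit of 30, so the place of S07 is uncertain. *Erf*, an ETS family repressor with a seed match in its 3′-UTR, had 36.8, 35.5 and 59.7 CPM in control and 23.3, 16.8, 21.01 and 19.3 CPM in dKO mice, and the lncRNA *Gm48606* had 66.5, 64.1 and 48.7 CPM in control and 27.2, 33.6, 10.2 and 25.7 CPM in dKO mice. Their log2 fold changes were -1.06 (SE 0.25) and -1.45 (SE 0.32).

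Among genes with higher levels in dKO RPE cells, *Hmox1*, the inducible heme oxygenase and a stress response gene like *Osgin1*, was the one of the 8 with the lowest p whose difference was larger in the cells above the limit of 30. It had 5.26, 5.28 and 3.07 CPM in control and 17.9, 8.40, 28.2 and 12.9 CPM in dKO mice, and all dKO mice lay above all control mice, as in 3.2% of genes tested. Its log2 fold change of 2.09 ± 0.40 (SE; edgeR, adjusted p = 0.416) became 2.14 without S07, which had 1 UMI of it, and 2.53 above the limit of 30 (edgeR, adjusted p = 0.197). Only a minority of cells carried it, with a UMI in 7 of 66, 3 of 62 and 6 of 60 RPE cells in control mice and 16 of 88, 1 of 18, 14 of 55 and 3 of 54 in S06 to S09. *Sulf2*, which trims sulfate groups from heparan sulfate, had 2.63, 9.81 and 6.58 CPM in control and 19.98, 16.8, 41.4 and 40.7 CPM in dKO mice. Its log2 fold change of 2.42 (SE 0.46) was 2.12 above the limit of 30, where S06 lay among the control mice, and DESeq2 gave an adjusted p of 0.023. *Cdh8*, a classical cadherin with a seed match, had the lowest p of all genes. It had 11.3, 8.30 and 12.7 CPM in control and 49.3, 16.8, 55.8 and 64.3 CPM in dKO mice, with a log2 fold change of 2.24 ± 0.30 (SE; edgeR, adjusted p = 0.194). Without S07 it was past the threshold (edgeR, adjusted p = 0.0212). It was also past it with S06 and S07 summed as 1 mouse (edgeR, adjusted p = 0.0257), although these mice differed in sex-linked RNA. Above the limit of 30 its log2 fold change was 1.85 with 9.99 CPM in S08 against 7.79 in S02. DESeq2 gave it an adjusted p of 7.74e-05. A single cell of S06 held 48.5% of the *Cdh8* UMIs of that mouse's RPE cells. In S08 and S09 the top cell held 34.4% and 40.0%, and in control mice S01, S02 and S03 36.7%, 18.2% and 58.6%. S08 went from 55.8 CPM over all RPE cells to the 9.99 CPM above the limit.

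**Figure D3:**
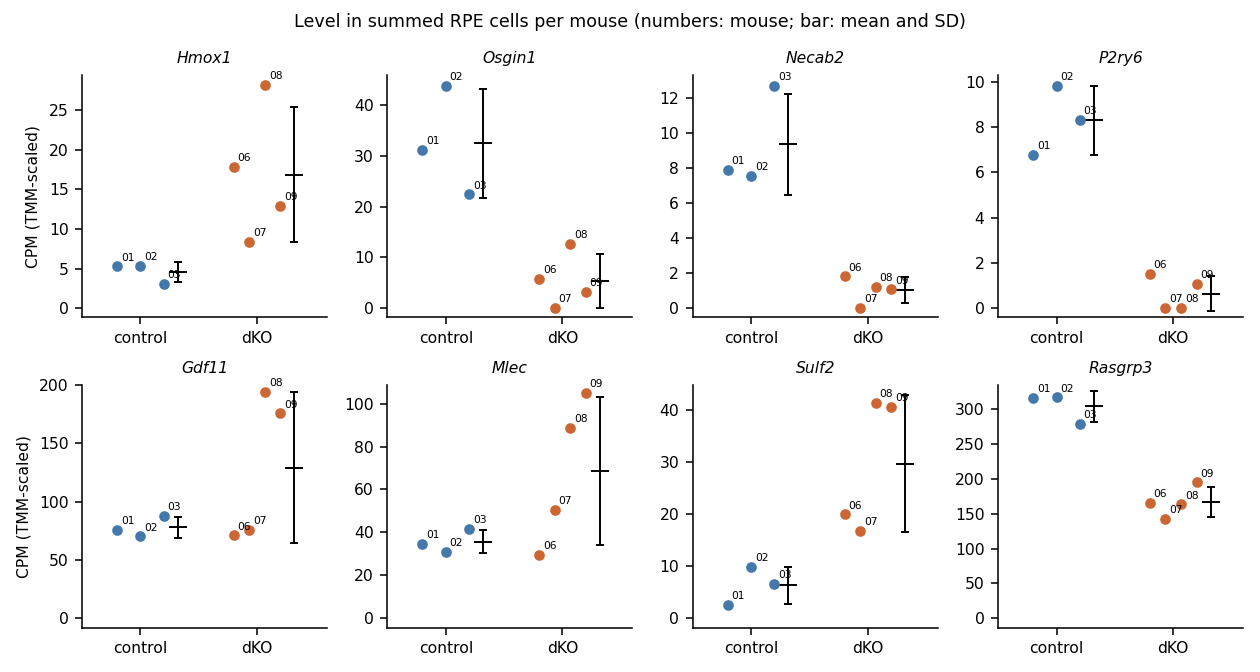
TMM-scaled CPM per mouse in summed RPE cells for 8 genes, with control mice on the left and dKO mice on the right of each panel and with points numbered by mouse. Bars give the mean and SD of 3 control and 4 dKO mice. Osgin1, Necab2, P2ry6 and Rasgrp3 are lower in every dKO mouse and Hmox1 and Sulf2 higher, whereas in Gdf11 and Mlec S06 is not above the control mice.

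Values with and without the cells with little RPE marker RNA follow for other genes with higher levels in dKO RPE cells. *Tenm3*, a teneurin adhesion protein of synapses, had 48.1, 63.4 and 79.4 CPM in control and 218, 193, 152 and 165 CPM in dKO mice, with a log2 fold change of 1.51 ± 0.23 (SE; edgeR, adjusted p = 0.298) and an adjusted p of 4.96e-04 in DESeq2. Over the cells above the limit of 30 it had 39.5, 61.5 and 47.9 CPM in control and 104, 20.4, 34.2 and 122 CPM in dKO mice, and thus overlap, and the log2 fold change was 0.76. *Ptprd*, a receptor phosphatase that organizes synapses, had 85.0, 151 and 117 CPM in control and 357, 538, 381 and 271 CPM in dKO mice, with a log2 fold change of 1.69 ± 0.28 (SE; edgeR, adjusted p = 0.397) and an adjusted p of 4.69e-04 in DESeq2. Above the limit it had 62.5, 155 and 72.3 CPM in control and 163, 81.6, 52.1 and 165 CPM in dKO mice, again overlapping, and a log2 fold change of 0.39. *Rims1*, of the presynaptic active zone, had a log2 fold change of 1.53 over all RPE cells and 0.20 above the limit, and for the lncRNA *Meg3* the values were 1.81 and 0.40. *Rgs6*, a regulator of G protein signalling, and *Ebf1*, a transcription factor, had log2 fold changes of 1.20 and 2.00 over all cells and 0.92 and 0.87 above the limit, where the groups overlapped for both. One cell of S06, with 219528 UMIs and a marker sum of 7.20 per 10,000, held 66.8% of the *Meg3*, 53.4% of the *Tenm3*, 55.7% of the *Ptprd* and 55.9% of the *Rims1* UMIs of that mouse's RPE cells. It also held 48.5% of its *Cdh8* UMIs, 49.6% of its *Ebf1* UMIs, 17.1% of its *Rgs6* UMIs and 1.69% of its *Hmox1* UMIs. This cell was inside the threshold of 5 and had 657 UMIs of *Syt1*.

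Over the cells above the limit of 30, edgeR tested 9709 genes and called 0, with 412 (4.24%) at a raw p under 0.05, 240 higher (2.47%) and 172 lower (1.77%). Of the 619 genes at a raw p under 0.05 over all RPE cells, 258 were also below it here with the same sign. Groups did not overlap, with dKO higher, for 185 genes (1.91%) and, with dKO lower, for 368 (3.79%).

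**Figure D4:**
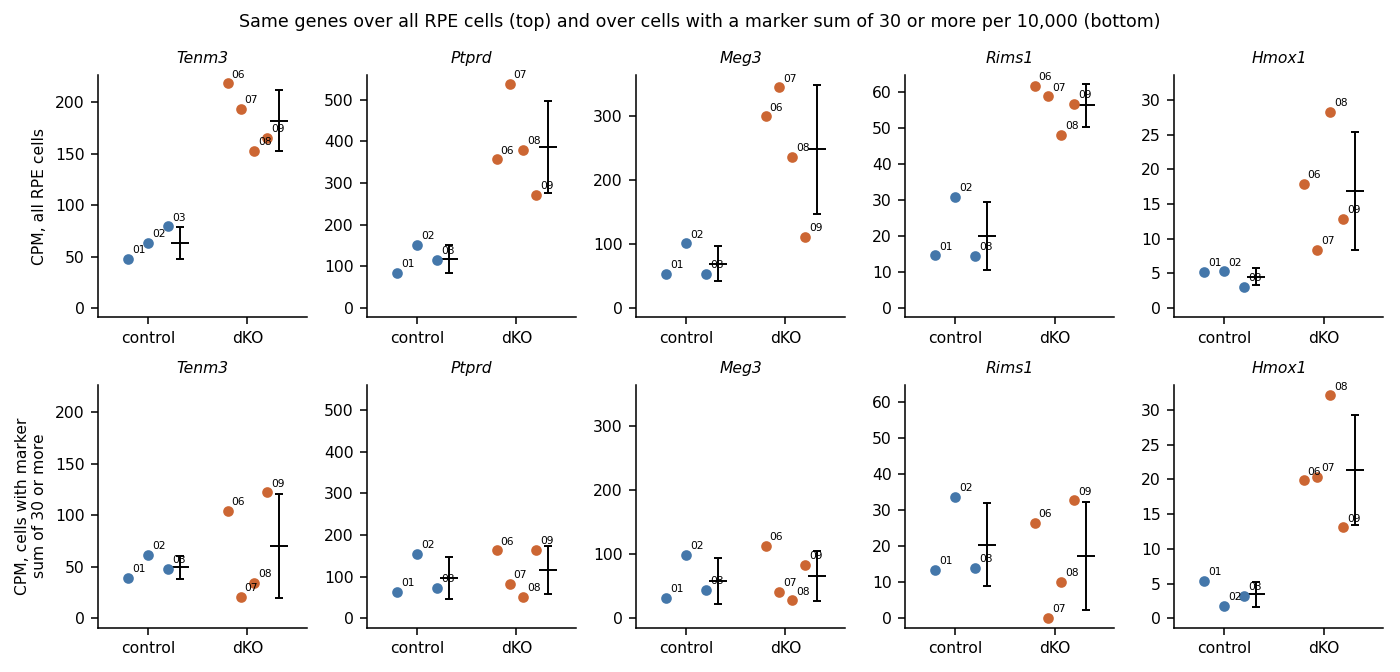
TMM-scaled CPM per mouse for Tenm3, Ptprd, Meg3, Rims1 and Hmox1 over all RPE cells (top) and over cells with a marker sum of at least 30 per 10,000 UMIs (bottom), on the same vertical axis for each gene. Bars give the mean and SD. In the bottom row the groups overlap for the first 4 genes and not for Hmox1.

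A list of 7 genes had been singled out for RPE in the study on these same mice, so their direction is not independent evidence. Of its 6 members tested, 0 passed the adjusted threshold, 3 were higher and 2 lower at a raw p under 0.05, and the median log2 fold change was 0.057 beside -0.0075 over all genes. Over all genes tested, 3.93% were higher and 1.95% lower at a raw p under 0.05. These shares stand beside the counts given for each further list as well. *Gdf11*, a ligand of the TGF-β family, had 75.9, 70.2 and 88.2 CPM in control and 71.1, 75.6, 194 and 176 CPM in dKO mice. Only S08 and S09 were clearly above the control mice in this count. Above the limit of 30, S07 had 163 CPM while S06 stayed at 78.3 CPM, and the log2 fold change went from 0.79 to 0.97. *Mlec*, malectin, a lectin of the endoplasmic reticulum with a pair of seed matches, had 34.6, 30.9 and 41.7 CPM in control and 29.7, 50.4, 88.9 and 105 CPM in dKO mice, and its log2 fold change went from 0.96 to 1.12. *Adamts10*, a secreted protease of the extracellular matrix, had 32.3, 43.8 and 39.05 CPM in control and 28.8, 25.2, 15.01 and 15.002 CPM in dKO mice, and its log2 fold change of -0.87 (SE 0.28) was -1.02 above the limit, without overlap in both. *Gm45895* overlapped between groups, and *Gm47469* was too low to be tested.

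The visual cycle genes showed no member past a threshold. All 12 were tested, 0 had a raw p under 0.05, and their median log2 fold change was -0.29 over all RPE cells and -0.086 above the limit of 30. Summed over the list they had 24739.9, 19731 and 23639 CPM in S01, S02 and S03 and 19662, 10608, 20735 and 21978 CPM in S06 to S09, without TMM scaling. S07 was the low mouse, and above the limit of 30 its sum was 19213 CPM, against 21428 to 25342 CPM in the others. *Rpe65* had 5813, 3425 and 6122 CPM in control and 4023, 1361, 5186 and 4337 CPM in dKO mice. It is selected on by the rule, as are *Lrat*, *Rdh5* and *Ttr*, so their levels are partly set by the choice of cells. *Rlbp1*, which binds 11-cis-retinoids and was not used by the rule, had 1125, 908 and 1109 CPM in control and 879, 235, 837 and 1020.2 CPM in dKO mice. *Rgr* had 9892, 7657 and 9501 CPM in control and 7004, 3688, 8259 and 9554 CPM in dKO mice. In both genes the groups overlapped, and S07 was lowest. *Rdh10*, a retinol dehydrogenase, was the 1 member with groups that did not overlap, with 2456, 1868 and 2158 CPM in control and 1654, 899, 1688 and 1712 CPM in dKO mice, a log2 fold change that kept its sign without each mouse in turn (from -0.64 to -0.36) and an adjusted p of 0.951 (edgeR). *Abca4*, a retinoid transporter best known from photoreceptor outer segments, had 1047, 967 and 1061 CPM in control and 974, 832, 1233 and 1312 CPM in dKO mice.

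All 13 members of the melanin and melanosome list were tested, 0 had a raw p under 0.05, and the median log2 fold change was 0.008. Above the limit of 30, 1 was higher (*Mlana*, 1.43 on the log2 scale) and 1 lower (*Dct*, -0.99) at a raw p under 0.05, with overlapping groups in both genes and a median of 0.13. *Tyr*, tyrosinase, the first enzyme of melanin synthesis, had 419.9, 387 and 374 CPM in control and 405, 252, 408 and 489 CPM in dKO mice. *Oca2*, a melanosomal ion transport protein, had 784, 936 and 644 CPM in control and 546, 185, 813 and 975 CPM in dKO mice. *Dct*, a later enzyme of the same route, was high in S02, with 316, 1357 and 512 CPM in control and 605, 294, 291 and 304 CPM in dKO mice. *Pmel*, which forms the fibrils on which melanin is laid down, ranged most widely, with 4.13, 82.2 and 14.04 CPM in control and 46.6, 252, 42.0 and 11.8 CPM in dKO mice. No member separated the groups over all RPE cells. *Trpm3*, the host gene of miR-204, had 16990.0, 18368 and 17912 CPM in control and 16720.1, 5426, 24312 and 18899 CPM in dKO mice, and *Trpm1*, the host of miR-211, had 75.6, 349 and 263 CPM in control and 498, 202, 227 and 206 CPM in dKO mice. Both overlapped between the groups, with S07 lowest for *Trpm3* and S01 lowest for *Trpm1*.

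Of the 8 transcription factors of the RPE list, 7 were tested, and *Pax6* alone had a raw p under 0.05, with 28.2, 34.0 and 18.4 CPM in control and 74.5, 33.6, 34.8 and 36.4 CPM in dKO mice. S06 was far above the rest, and without it the log2 fold change went from 0.87 to 0.42. *Meis2*, which like *Pax6* is linked to these microRNAs in eye development, had 287, 309 and 305 CPM in control and 317, 369.6, 346 and 324 CPM in dKO mice, without overlap over all RPE cells but with overlap above the limit of 30, and with a log2 fold change of 0.17 (SE 0.18). *Sox9*, an activator of visual cycle genes, had 134, 102 and 153 CPM in control and 146, 67.2, 106 and 107 CPM in dKO mice. The list median was -0.071.

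For the uptake of outer segments, 10 of 11 genes were tested, with *Itgb5* lower and *Map1lc3b* higher at a raw p under 0.05 and a median of -0.10. *Itgb5*, a subunit of the binding receptor, had 117, 73.2 and 75.5 CPM in control and 63.3, 33.6, 48.6 and 69.7 CPM in dKO mice, and the groups did not overlap. *Map1lc3b*, the LC3 protein of autophagosomes and phagosomes, had 19.9, 15.8 and 26.8 CPM in control and 29.7, 25.2, 36.6 and 28.9 CPM in dKO mice. *Gas6*, a ligand that bridges outer segments to the receptor Mertk, had 28.6, 38.5 and 43.0 CPM in control and 49.9, 50.4, 33.6 and 76.1 CPM in dKO mice. In the lysosome list all 16 genes were tested, the median was -0.0091, and 1 member had a raw p under 0.05. This was *Tfeb*, a transcription factor of lysosomal genes, with 36.5, 31.7 and 41.7 CPM in control and 27.8, 25.2, 19.2 and 24.6 CPM in dKO mice and a log2 fold change of -0.61 (SE 0.22). In S08 and S09 *Lamp1*, a lysosomal membrane protein, was above the other mice, with 47.7, 45.3 and 35.1 CPM in control and 36.6, 25.2, 70.8 and 119 CPM in dKO mice.

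Of the junction and polarity genes, 10 of 12 were tested, with a median of -0.15. *Cldn2*, a pore-forming claudin, was lower at a raw p under 0.05, with 69.9, 39.2 and 61.4 CPM in control and 43.9, 16.8, 23.4 and 43.9 CPM in dKO mice, overlapping groups and a log2 fold change of -0.69 (SE 0.30). *Krt18*, a keratin of simple epithelia, had 339, 205 and 299 CPM in control and 262, 151, 227 and 158 CPM in dKO mice. Of the transport genes, 11 of 13 were tested, 0 had a raw p under 0.05, and the median was -0.087. *Slc2a1*, the main glucose transporter, had 1075, 773 and 1314 CPM in control and 821, 319, 782 and 863 CPM in dKO mice. *Kcnj13*, the potassium channel Kir7.1 of the apical membrane, had 537, 475 and 488 CPM in control and 519, 134, 479 and 420.1 CPM in dKO mice. S07 was the low mouse for both genes.

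Stress and immune genes gave a mixed picture. Of the antioxidant list, 12 of 13 genes were tested, with a median of 0.15 and 2 members higher at a raw p under 0.05, *Hmox1* and *Gclc*. *Gclc*, the rate-limiting enzyme of glutathione synthesis, had 44.0, 40.0 and 42.6 CPM in control and 143, 42.0, 93.1 and 31.1 CPM in dKO mice. S06 and S08 were high, S07 and S09 were at the control level, and without S06 the log2 fold change went from 1.02 to 0.52. Of the unfolded protein response, 9 of 10 genes were tested. Of these 9, 8 had a log2 fold change below 0, and the median was -0.18 beside -0.0075 over all genes. Above the limit of 30 the median was -0.076, and *Herpud1* was the 1 member with a raw p under 0.05. *Herpud1*, a part of the degradation machinery of the endoplasmic reticulum, had 44.4, 35.5 and 25.9 CPM in control and 20.9, 16.8, 15.01 and 19.3 CPM in dKO mice, with a log2 fold change of -0.94 (SE 0.26) and no overlap, also above the limit of 30. *Dnajb9*, a co-chaperone of BiP, had 71.4, 77.0 and 79.0 CPM in control and 52.7, 33.6, 49.8 and 58.9 CPM in dKO mice, with a log2 fold change of -0.55 (SE 0.19), and above the limit of 30 its groups overlapped. Of the complement and inflammation list 10 of 17 genes were tested, with a median of 0.28 and with *C4b* and *H2-K1* higher at a raw p under 0.05. *H2-K1*, a class I antigen-presenting molecule, had 8.65, 9.81 and 7.46 CPM in control and 14.5, 8.40, 23.4 and 26.8 CPM in dKO mice, with a log2 fold change of 1.22 (SE 0.33). *C4b*, complement factor 4, had 0.752, 5.28 and 1.75 CPM in control and 18.5, 0, 8.40 and 8.57 CPM in dKO mice, and with so few counts it was not tested above the limit of 30.

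Among 10 of 11 secreted and matrix genes tested, *Tgfb2*, *Efemp1* and *Gdf11* were higher and *Adamts10* lower at a raw p under 0.05, and the median was -0.20. *Tgfb2*, a TGF-β ligand, had 12.0, 15.1 and 12.3 CPM in control and 40.6, 92.4, 31.8 and 30.01 CPM in dKO mice, with a log2 fold change of 1.59 that was 0.99 above the limit of 30, where the groups overlapped. *Efemp1*, fibulin-3, an extracellular matrix protein linked to inherited drusen, had 6.77, 6.04 and 3.95 CPM in control and 31.5, 8.40, 16.8 and 13.9 CPM in dKO mice. Its log2 fold change was 1.90 (SE 0.40), and its counts above the limit of 30 were too low to be tested. In lipid handling, 12 of 12 genes were tested, the median was -0.12, and *Lpl*, lipoprotein lipase, was the 1 member with a raw p under 0.05. It had 6.01, 4.53 and 0.439 CPM in control and 66.6, 8.40, 10.8 and 9.64 CPM in dKO mice, and without S06 the log2 fold change went from 3.02 to 1.46. Of 11 dedifferentiation and mesenchymal genes 5 were tested, 0 had a raw p under 0.05, and the median was 0.019. *Vim*, vimentin, had 24.4, 23.4 and 13.6 CPM in control and 16.6, 0, 31.8 and 39.6 CPM in dKO mice.

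Genes that respond to handling were measured beside these. Of the early response genes, 9 of 11 were tested, the median log2 fold change was -0.30, and *Nr4a1*, an immediate early transcription factor, had 374, 292 and 358 CPM in control and 189, 50.4, 164 and 289 CPM in dKO mice, with a log2 fold change of -0.88 (SE 0.36) and no overlap. Of the clock genes, 11 of 12 were tested with a median of -0.10, and *Dbp*, a clock output gene, had 58.3, 41.5 and 45.2 CPM in control and 36.9, 16.8, 24.6 and 32.1 CPM in dKO mice and a log2 fold change of -0.67 (SE 0.24). The part of dissociation and of time of day in the other differences was not tested.

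**Figure D5:**
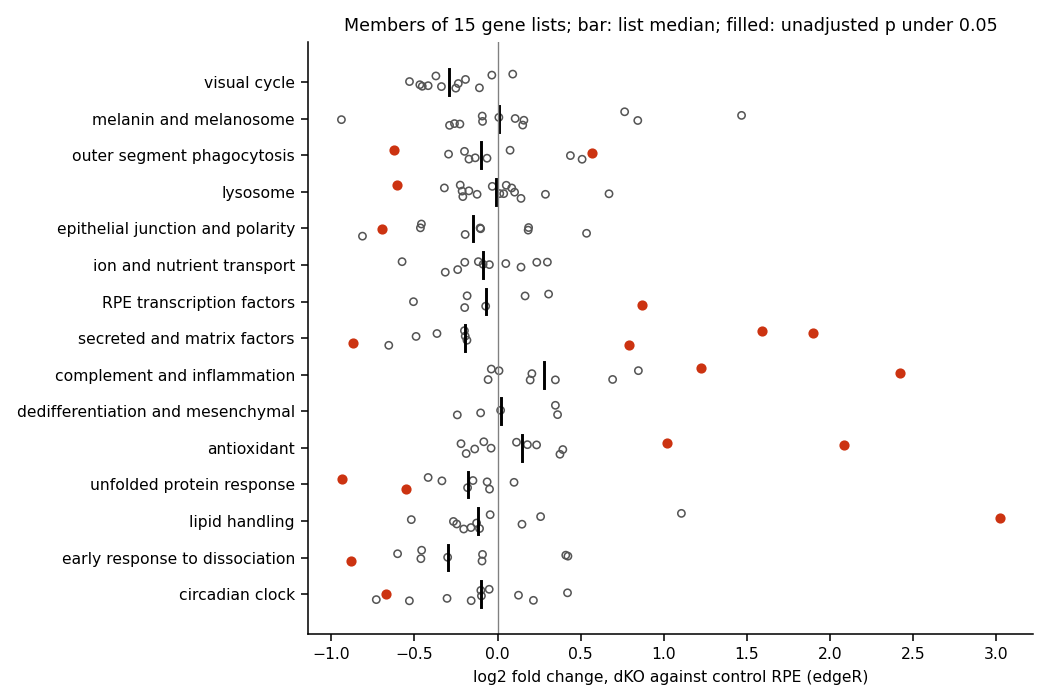
Log2 fold change of each tested member of 15 gene lists in dKO against control RPE cells (edgeR, 3 against 4 mice), with a vertical bar at each list's median. Filled points have a raw p under 0.05, none has an adjusted p below 0.05, and the list medians lie between -0.30 and 0.28.

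Whether a dKO difference was particular to RPE cells was tested as the difference between its log2 fold change in RPE cells and in Müller glia, or rods, of the same mice. Against Müller glia, 0 of 13715 genes passed (edgeR with mouse as a block; 0.0% called), with 747 (5.45%) at a raw p under 0.05, and DESeq2 called 7. Against rods, 0 of 13960 passed (0.0% called), with 755 (5.41%) at a raw p under 0.05, and DESeq2 called 5. *Osgin1* was again among the leading genes, with a difference of -2.67 (SE 0.56, adjusted p = 0.403) against Müller glia and -2.83 (SE 0.83, adjusted p = 0.776) against rods. *Lrrc8a*, a subunit of volume-regulated anion channels, was on the lower side of both, with -0.96 (SE 0.24, adjusted p = 0.466) and -1.28 (SE 0.26, adjusted p = 0.565), and in RPE cells it had 45.1, 38.5 and 49.1 CPM in control and 25.1, 42.0, 18.6 and 23.6 CPM in dKO mice. *Nrg1*, the ligand neuregulin 1, had -1.96 (SE 0.48, adjusted p = 0.462) and -1.80 (SE 0.45, adjusted p = 0.754), and in RPE cells it had 67.3, 529.7 and 187 CPM in control and 79.3, 58.8, 82.2 and 50.4 CPM in dKO mice, with control mouse S02 far above the rest. *Stox1* had -2.50 (SE 0.55, adjusted p = 0.635) and *Gm48606* -2.27 (SE 0.46, adjusted p = 0.565) against rods, where S07 had 0 UMIs of *Stox1*, while the difference of *Gm48606* against Müller glia had the opposite sign, with 1.41 (SE 0.64, adjusted p = 0.916). *Acta2*, smooth muscle actin, had -3.03 (SE 0.71, adjusted p = 0.462) against Müller glia, where its own log2 fold change in Müller glia was 2.80 and that in RPE cells -0.24.

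On the higher side, *Meg3* was among the leading genes against both classes, with 1.87 (SE 0.35, adjusted p = 0.358) against Müller glia and 1.73 (SE 0.31, adjusted p = 0.444) against rods. *Tenm3* and *Ptprd* were leading genes against rods as well, with 1.46 (SE 0.27, adjusted p = 0.444) and 1.57 (SE 0.29, adjusted p = 0.444). Above the limit of 30 the RPE log2 fold changes of these 3 genes were 0.40, 0.76 and 0.39. Against Müller glia the other leading genes were *Adcy2*, an adenylyl cyclase, with 1.59 (SE 0.28, adjusted p = 0.358), *Lrrk2*, a kinase of vesicle and lysosome traffic, with 2.17 (SE 0.39, adjusted p = 0.358), and the lncRNA *Miat* with 3.50 (SE 0.64, adjusted p = 0.358). Of these *Lrrk2* had 2.26, 2.26 and 4.39 CPM in control and 13.6, 0, 14.4 and 12.9 CPM in dKO mice in RPE cells, with S07 at 0 UMIs. For *Gdf11* the difference was 0.69 (SE 0.40, adjusted p = 0.979) against Müller glia and 0.88 (SE 0.37, adjusted p = 0.876) against rods, and for *Mlec* 0.84 (SE 0.41, adjusted p = 0.955) and 0.81 (SE 0.46, adjusted p = 0.95). With adjusted p-values of this size, none of these differences is shown to be particular to RPE cells.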

How the data were processed

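RNA of single retinal cells from 9 mice was barcoded and sequenced with a split-pool kit (Parse Evercode). The deposited counts are raw UMI counts per gene and cell, made by the authors with split-pipe on GRCm39, without pooling of mice, and with low cells and rare genes removed. Classes were rebuilt from marker rules, since no annotation of cells was used here, and no doublet caller was run.

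Counts were summed per mouse and class. edgeR 4.0.16 (TMM, filterByExpr, quasi-likelihood, Benjamini-Hochberg, R 4.3.3) compared dKO with control, and mouse was a block in the differences between classes. Single values were compared by exact permutation (scipy 1.17.1). DESeq2 1.42.0 and limma 3.58.1 were alternatives, as were other filters, scalings, cell rules and the omission of each mouse. Tests were tried on simulated data first.

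Genes named are the 8 lowest p in each direction, members of gene lists (at most 4 by p, all for visual cycle and melanin), the 4 lowest p in each direction of each class difference, the 20 most raised in RPE, the genes singled out by the study and both host genes. The members, lists and limits were chosen with earlier results of these data known. Replicates are mice, and p-values measure the spread between them. A few named genes are not reported here.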

Additional observations from a re-analysis of the deposited data

Results flagged for a closer look

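Of 39 groups of 4 or 5 mice examined for a sample far from the others by Dixon's test, 4 had one, and chance alone marks about 5% of groups. In the control group, the RPE share of cells of S04 was 0.0369%, far below the other 3 control mice. In the dKO group, S07 stood above the other 3 mice for *Tgfb2* with 92.4 CPM, which came from 11 UMIs with 72.7% of them in 1 cell. S06 stood above the other 3 for *Lpl* with 66.6 CPM and for *Pax6* with 74.5 CPM. Over its RPE cells with at least 30 marker UMIs per 10,000, S07 had 61.2 CPM of *Tgfb2* (3 UMIs), and S06 had 30.6 CPM of *Lpl*.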

How the results depend on the processing

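The RPE comparison called 0 genes under limma-voom, library size scaling, the stricter cell rule and the omission of cells with the most rod RNA. DESeq2 called 12, of which 11 were higher, and testing without a filter on low counts called 226. With S06 and S07 summed as 1 mouse, although their sex-linked RNA differed, 1 gene passed (*Cdh8*). Without RPE cells over 100000 UMIs, an alternative chosen after seeing the data, 1 passed (*Osgin1*). Leaving out each mouse in turn gave 0 to 1 genes, the 1 being *Cdh8* without S07. For the difference from Müller glia DESeq2 called 7 and no filter 243. For that from rods DESeq2 called 5 and no filter 106, and leaving out mice gave 0 to 1, the 1 being *Slco1c1* without S09. Without the replicate block, 0 genes passed in both class differences. The dKO minus control difference in RPE share of cells (-0.0317 percentage points) ran from -0.444 to 0.183 without each mouse. That in rod RNA share of RPE UMIs ran from -0.0083 to 0.0774, where the negative value was without S07, and was -0.386 with no minimum of cells and -0.0062 with S06 and S07 as 1 mouse. The causes were not tested. Of 872 values of 49 named folds under alternatives, 823 kept their direction and side of the threshold, 49 passed it and 0 reversed. No paired analysis was possible because the replicate numbers of control and dKO mice are not shared. With 3 against 4 mice the exact test cannot go below 0.0571.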
